A study of Mus musculus with 12 samples.

Results

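The genes of calcium-calcineurin-NFAT signalling were followed through 7 groups of sorted mouse hair follicle stem cells, most of them with or without the transcription factor Foxc1. The set holds 10 of the 23735 gene models in the deposited tables: the NFAT factors Nfatc1, Nfatc2, Nfatc3 and Nfatc4, the calcineurin catalytic subunits Ppp3ca and Ppp3cb, the calcineurin regulator Rcan1, the calmodulin-dependent kinase Camk4 and the endoplasmic reticulum calcium pumps Atp2a2 and Atp2a3. The members were chosen by symbol with their FPKM values and calls in these same tables already known, so those values and the authors' calls are a description and not an independent test. Each symbol had 1 row, and all 10 are accounted for.

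In resting cells NFAT proteins of the calcium-regulated group are phosphorylated and kept in the cytoplasm. A rise of cytosolic calcium loads calmodulin, which activates the phosphatase calcineurin, and dephosphorylated NFAT then enters the nucleus and regulates genes; SERCA pumps return calcium to the endoplasmic reticulum and so end the signal. In the hair follicle NFATc1 is known as a factor of the resting bulge, the niche in which stem cells wait between hair cycles, where it restrains the cell cycle through repression of Cdk4.

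Bulge stem cells had been isolated by cell sorting from back skin, and polyadenylated RNA was sequenced. The anagen iKO cells came from male mice of postnatal day 30 on a Black Swiss and C57BL/6 mix, with Foxc1 removed by tamoxifen-induced Sox9CreER, a Cre active in Sox9-expressing cells; their anagen Het controls had the same background, age, sex, driver and tamoxifen, and were heterozygous for Foxc1. The telogen cKO cells, with Foxc1 removed by K14Cre, a driver of keratin 14 epithelium, and the telogen WT cells came from Black Swiss mice in the second telogen, in each group 1 library from males of day 42 and 1 from females of day 46. The telogen iKO cells came from males of day 60 on the mixed background with Sox9CreER, also in the second telogen, and had no control of their own strain, age and driver. These 5 groups have 2 libraries each. An anagen II and a first telogen group, of about days 26 and 23, hold 1 library each from Agouti females labelled Shh-Het, whose titles call them WT.

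Every level is an FPKM, the number of sequenced fragments scaled to transcript length and library size, which the authors deposited as 1 pooled value per group. No value per library could be used, so no SD is given and the depth is unknown. Folds, statistics and q-values are those of the authors' deposited tables, a gene is called at q below 0.05, and each SE is approximate, the fold on the log2 scale over the statistic in the table. The p-values rest on only 2 libraries per group, whose spread may in part be technical. They come from the authors' Cuffdiff runs, and for the same libraries they differ between the 2-group tables and the joint table. For Nfatc4 in telogen cKO over WT the deposited Cuffdiff p was 0.0035 in the 2-group table and 0.00055 in the joint table. In these bulk samples, fewer cells of a type and less RNA per cell cannot be told apart. Foxc1 itself stood at 1.40 FPKM in anagen iKO and 23.9 FPKM in anagen Het cells, at 1.59 FPKM in telogen cKO and 26.5 FPKM in telogen WT cells, and, in the joint table of all groups, at 3.17 FPKM in telogen iKO and 27.5 FPKM in telogen WT cells. Of 10 bulge markers, the only one below 1 FPKM in any of the 7 groups was Krt15, which is listed at 0 in the anagen Het, telogen cKO and telogen WT groups and at 3293.7 to 9222 FPKM in the other 4, so these zeros may be failed estimates and are not read as levels. The first telogen library stood apart: 8 fibroblast markers summed to 2304 FPKM there and to 1094 FPKM in the anagen II library, against 82.6 to 136 FPKM in the other 5 groups, and the small RNA Mir6236 alone was listed at 464468 FPKM.

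The pair of genes that changed most were a pump and a kinase. Atp2a3 and Camk4 were called lower in all 3 Foxc1 knockout groups, whereas the calcineurin subunits, Rcan1, Nfatc3 and Atp2a2 were called in none of the 3 knockout comparisons. In anagen iKO against Het, 3 of the 9 tested members were called, all lower (Nfatc1, Atp2a3 and Camk4), where the share of all tested genes with a call was 10.3%, made up of 5.18% higher and 5.08% lower. In telogen cKO against WT, 2 of 10 were called, both lower (Atp2a3 and Camk4), where the share called over all tested genes was 6.62%, with 3.75% higher and 2.87% lower. In telogen iKO against WT the same count and genes were called lower, beside a rate of 12.9% over all tested genes, with 7.01% higher and 5.88% lower; strain, age, sex and driver differ in that pair and cannot be told apart from the knockout. The members were chosen with these calls known, so nothing is read from these counts.

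**Figure D1:**
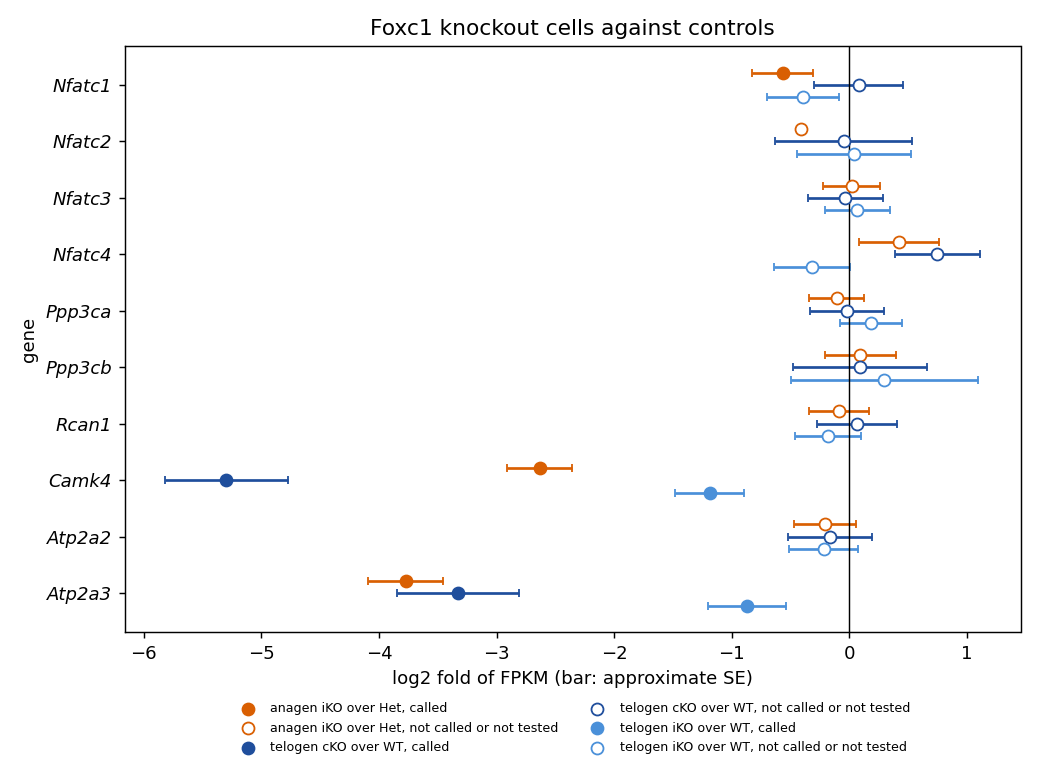
Log2 fold of FPKM for the 10 genes (rows) in anagen iKO over Het, telogen cKO over WT and telogen iKO over WT. Bars are approximate SEs, filled points are called at q below 0.05, and Nfatc2 has no bar in anagen, where it was not tested; the points far left of 0 are Atp2a3 and Camk4, with folds of -3.77 and -2.63 in anagen and -3.33 and -5.30 in telogen cKO.

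In mm9, the build of the deposited tables, the gene models of 8 members lie at chr2:168301909-168427157 (Nfatc2), chr8:108583502-108654437 (Nfatc3), chr14:56443631-56452780 (Nfatc4), chr3:136333733-136598743 (Ppp3ca), chr14:21318535-21437576 (Ppp3cb), chr16:92392195-92466414 (Rcan1), chr5:122903521-122952234 (Atp2a2) and chr11:72774670-72806545 (Atp2a3). RefSeq's promoter table (build GRCm38.p6, 250 bases before and 50 after each start) matched 6 of the 10 members with 9 windows. Of these 6, Atp2a3, Nfatc2 and Nfatc4 are shown for their spread of levels over the groups, and Rcan1 because its internal start is known to answer to calcineurin. Capitals mark the NFAT core GGAAA or the forkhead core GTAAACA on either strand (TTTCC and TGTTTAC on the other strand); no marked match of one overlapped the other in the windows printed. The NFAT core is common: 61.3% of all 32851 windows in the table hold it, and 6 of these 9 do; the forkhead core is in 3.65% of all windows and in 2 of these 9. A match describes letters and not a bound site. The windows of Atp2a3 (chr11:72960919-72961218, plus strand), Nfatc2 (chr2:168601608-168601907, minus strand), Nfatc4 (chr14:55824545-55824844, plus strand) and the internal and upstream starts of Rcan1 (chr16:92400029-92400328 and chr16:92466120-92466419, minus strand) read, 5′ to 3′:
Atp2a3: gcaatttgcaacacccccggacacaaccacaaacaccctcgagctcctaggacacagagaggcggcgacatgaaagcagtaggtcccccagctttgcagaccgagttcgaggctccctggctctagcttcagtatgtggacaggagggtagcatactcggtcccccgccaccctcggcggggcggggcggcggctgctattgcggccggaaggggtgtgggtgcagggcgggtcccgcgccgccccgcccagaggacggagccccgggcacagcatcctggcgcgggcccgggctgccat
Nfatc2: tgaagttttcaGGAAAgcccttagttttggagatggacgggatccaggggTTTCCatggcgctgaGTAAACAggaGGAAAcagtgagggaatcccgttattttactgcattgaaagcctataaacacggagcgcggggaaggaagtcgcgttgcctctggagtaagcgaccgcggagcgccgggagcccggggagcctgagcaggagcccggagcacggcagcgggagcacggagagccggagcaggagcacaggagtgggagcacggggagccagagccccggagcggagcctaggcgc
Nfatc4: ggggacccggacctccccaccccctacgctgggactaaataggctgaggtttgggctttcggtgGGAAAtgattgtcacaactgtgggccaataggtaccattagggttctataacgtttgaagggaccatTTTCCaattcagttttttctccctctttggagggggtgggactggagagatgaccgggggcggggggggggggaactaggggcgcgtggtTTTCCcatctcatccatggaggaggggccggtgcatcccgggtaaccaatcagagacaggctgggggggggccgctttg
Rcan1 internal: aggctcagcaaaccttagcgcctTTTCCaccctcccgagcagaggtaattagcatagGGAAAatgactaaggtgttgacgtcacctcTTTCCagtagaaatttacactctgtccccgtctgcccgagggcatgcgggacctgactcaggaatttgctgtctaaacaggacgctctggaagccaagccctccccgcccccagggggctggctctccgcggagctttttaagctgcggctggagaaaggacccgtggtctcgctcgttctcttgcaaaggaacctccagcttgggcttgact
Rcan1 upstream: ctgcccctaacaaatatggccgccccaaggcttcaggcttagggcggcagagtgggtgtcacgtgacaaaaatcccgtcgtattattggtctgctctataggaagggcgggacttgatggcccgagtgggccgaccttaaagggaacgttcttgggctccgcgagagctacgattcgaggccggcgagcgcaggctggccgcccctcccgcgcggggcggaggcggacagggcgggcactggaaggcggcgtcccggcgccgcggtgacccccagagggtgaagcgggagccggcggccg
The Atp2a3 window held neither core. The Nfatc2 window held 3 NFAT cores and 1 forkhead core, and the Nfatc4 window 3 NFAT cores and 0 forkhead cores. The 2 Rcan1 windows differed: the internal start, background to which is the calcineurin-responsive short Rcan1 transcript, had 3 NFAT cores, and the upstream start had 0. The windows not printed, for Ppp3cb, for both starts of Nfatc3 and for a second start of Nfatc2, held 4, 1, 0 and 1 NFAT cores, with 1 forkhead core in the first Nfatc3 window.

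Among Nfatc1 to Nfatc4, Nfatc1 had the highest FPKM in each of the 7 groups, with 50.9% to 76.7% of the summed Nfatc1 to Nfatc4 FPKM. In the anagen table it stood at 28.2 FPKM in iKO and 41.9 FPKM in Het cells. The fold on the log2 scale was -0.57 (approximate SE 0.26), which is called lower in the authors' deposited table (q = 0.0198). That call rests on the deposited p of 0.0016: a normal p from the deposited statistic was 0.0277, which adjusts to 0.266 over all tested genes and is no call. In telogen, Nfatc1 stood at 76.9 FPKM in cKO and 72.7 FPKM in WT cells, a log2 fold of 0.08 (approximate SE 0.38) that is not called in the authors' deposited table (q = 0.984). The telogen fold minus the anagen fold was 0.65 on the log2 scale with an approximate SE of 0.46, and this difference was not tested. Driver, control genotype, strain, age and sex differ between these folds and cannot be told apart from stage. That holds for each member whose folds are set against each other in this way. Telogen iKO cells held 57.4 FPKM against 75.5 FPKM in WT cells in the joint table, a log2 fold of -0.40 that is not called in the authors' deposited table (q = 0.179). Beside the anagen value, 3 of 9 tested bulge markers were called lower in anagen iKO cells. Of 7 tested hair shaft markers 5 were called lower, with a list median of log2((FPKM + 1) ratio) of -1.28. Their summed level was 54.8 FPKM in iKO and 69.0 FPKM in Het cells. The largest part of that sum was Hoxc13, which stood higher in iKO cells, at 42.0 against 30.6 FPKM, with no call. Krt31, Krt33a, Krt33b, Krt81, Krt86 and Msx2 stood lower in iKO cells. Fibroblast markers had 3 called lower and 1 higher of 8 (95.4 FPKM in iKO and 136 FPKM in Het cells). The part of these markers in the Nfatc1 result was not tested.

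Nfatc1 was higher in the telogen than in the anagen groups. In the joint table its levels were 26.6 FPKM in anagen iKO and 39.5 FPKM in anagen Het cells, and 80.0, 57.4 and 75.5 FPKM in telogen cKO, telogen iKO and telogen WT cells. The 2 single libraries held 19.7 FPKM in anagen II and 55.1 FPKM in first telogen. All 3 telogen groups lay above both anagen groups, and the authors called Nfatc1 higher in telogen in 6 of 6 telogen-anagen pairs of the 2-library groups. The 6 pairs reuse the same groups and are not separate results. Age differs with stage in each pair, and strain, sex or genotype differ too in all but telogen iKO over anagen iKO. These cannot be told apart from stage. Calls are frequent in such pairs. Of all tested genes, 28.3% were called in telogen cKO over anagen iKO, 22.7% in telogen cKO over anagen Het, 33.2% in telogen iKO over anagen iKO, 25.9% in telogen iKO over anagen Het, 35.4% in telogen WT over anagen iKO and 25.4% in telogen WT over anagen Het; inside a stage the shares were 14.9% in telogen cKO over iKO, 12.2% in cKO over WT, 12.9% in iKO over WT and 11% in anagen iKO over Het. With a normal p, telogen iKO over anagen Het was the telogen-anagen pair of Nfatc1 that lost its call, leaving 5. Among the 3 telogen groups Cuffdiff made 0 calls, with an unadjusted p below 0.05 for 1 pair, cKO over iKO (p = 0.0244, adjusted to q = 0.0834 in the authors' deposited table).

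Nfatc2, a close paralogue best known in lymphocytes, was near the lower end of what is measured. It was not tested in the anagen table, with 0.135 FPKM in iKO and 0.180 FPKM in Het cells, and stood at 0.670 FPKM in telogen cKO and 0.693 FPKM in telogen WT cells. In the joint table the telogen groups held 0.698, 0.740 and 0.721 FPKM (cKO, iKO and WT), all above the anagen values of 0.127 FPKM in iKO and 0.169 FPKM in Het cells. It was called higher in telogen in 6 of 6 telogen-anagen pairs, which reuse the same groups. The highest level, 1.62 FPKM, was in the first telogen library, and anagen II stood at 0.347 FPKM. Of 9 T cell markers, Thy1, which other cells also express, stood at 67.6 FPKM in anagen II and 35.5 FPKM in first telogen; the other 8 summed to 4.49 FPKM in anagen II and 20.7 FPKM in first telogen, against 2.54 to 5.77 FPKM in the 5 groups of 2 libraries. Their part in the Nfatc2 level was not tested.

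Nfatc3 had the smallest ratio of highest to lowest level among the members, lying between 14.8 and 17.7 FPKM over the 7 groups, and was called by Cuffdiff in 0 of 10 pairs, with 0 at an unadjusted p below 0.05 and 0 with a normal p. Nfatc4, the NFAT factor known from heart and neurons, moved more. It stood at 4.08 FPKM in anagen iKO and 3.05 FPKM in anagen Het cells, which is not called in the authors' deposited table (q = 0.309). In the telogen table it stood at 11.5 FPKM in cKO and 6.84 FPKM in WT cells, a log2 fold of 0.75 (approximate SE 0.36). This misses the threshold in the authors' deposited table for that pair (q = 0.0523), and the same fold is called higher in the authors' deposited joint table (q = 0.00376), where 12.2% of tested genes were called for the pair; with a normal p the joint value adjusts to 0.139 and is no call. Telogen iKO cells, at 5.72 FPKM, lay below both cKO cells at 11.9 FPKM and WT cells at 7.11 FPKM in the joint table, and the cKO level was called higher than the iKO level. Nfatc4 was called higher in telogen in 5 of 6 telogen-anagen pairs, which reuse the same groups. The pair without a call was telogen iKO against anagen iKO.

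No calcineurin subunit was called in a knockout comparison. Ppp3ca, the main catalytic subunit, stood at 42.0 FPKM in anagen iKO and 45.3 FPKM in anagen Het cells, and at 46.8 FPKM in telogen cKO and 47.6 FPKM in telogen WT cells. Ppp3cb, its close paralogue, stood at 26.7 FPKM in anagen iKO and 25.1 FPKM in anagen Het cells, and at 20.7 FPKM in telogen cKO and 19.4 FPKM in telogen WT cells. Over the 10 joint pairs Ppp3cb was called by Cuffdiff in 0, with 0 at an unadjusted p below 0.05 and 0 with a normal p, and Ppp3ca in 1, telogen iKO at 56.2 FPKM over anagen iKO at 39.6 FPKM, close to the threshold in the authors' deposited joint table (q = 0.0486). The lowest Ppp3ca level, 28.7 FPKM, was in the anagen II library.

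Rcan1, which binds and restrains calcineurin and is itself an NFAT-induced gene in several tissues, stood at 64.4 FPKM in anagen iKO and 68.5 FPKM in anagen Het cells. In telogen it stood at 77.9 FPKM in cKO and 74.5 FPKM in WT cells. It was called by Cuffdiff in 0 of 10 joint pairs, with 1 pair at an unadjusted p below 0.05 and 0 called with a normal p, and its levels lay between 60.8 and 81.2 FPKM. The single libraries were lower, at 30.2 FPKM in anagen II and 45.0 FPKM in first telogen. The tables hold 1 value for the gene, so its internal and upstream starts cannot be told apart here.

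Atp2a3 encodes SERCA3, a pump of lower calcium affinity than the widespread SERCA2 of Atp2a2. It fell to 2.01 FPKM in anagen iKO cells, against 27.5 FPKM in Het cells, and to 0.534 FPKM in telogen cKO cells, against 5.36 FPKM in WT cells. These are 13.7-fold and 10.04-fold lower levels, with log2 folds of -3.77 (approximate SE 0.32) and -3.33 (approximate SE 0.52), and q-values in the authors' deposited tables of 0.00106 and 0.00159. The telogen minus anagen fold was 0.45 with an approximate SE of 0.60, not tested, and 1.19 with 1 FPKM added to each level. Telogen iKO cells held 3.05 FPKM against 5.58 FPKM in WT cells in the joint table, a log2 fold of -0.87 that is called lower in the authors' deposited table (q = 0.00121) but adjusts to 0.113 with a normal p. Within telogen the cKO level of 0.556 FPKM was called lower than the iKO level of 3.05 FPKM. Endothelium also uses this pump, and 2 of 6 tested endothelial markers were called lower in anagen iKO cells; the 8 markers together summed to 5.49 FPKM in anagen iKO and 8.42 FPKM in anagen Het cells, and to 1.40, 0.734 and 1.14 FPKM in telogen cKO, telogen iKO and telogen WT cells; their part in the Atp2a3 values was not tested.

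Atp2a2 did not follow. It stood at 99.99 FPKM in anagen iKO and 115 FPKM in anagen Het cells, and at 49.8 FPKM in telogen cKO and 56.0 FPKM in telogen WT cells, with no call in either pair. Among the summed FPKM of the SERCA genes, Atp2a3 made up 1.97% in anagen iKO and 19.2% in anagen Het cells, and 1.05%, 5.72% and 8.73% in telogen cKO, telogen iKO and telogen WT cells. Atp2a2 gave 80.7% to 98.4% of the SERCA message in these 5 groups. The anagen Het group, at 25.9 FPKM in the joint table, stood far above the other 6 groups for Atp2a3, whose levels lay between 0.556 and 5.58 FPKM.

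Camk4, a nuclear kinase activated by calmodulin that phosphorylates CREB and is best known in neurons and T cells, fell to 1.41 FPKM in anagen iKO cells, against 8.77 FPKM in Het cells. It fell to 0.196 FPKM in telogen cKO cells, against 7.70 FPKM in WT cells. The levels were 6.20-fold and 39.3-fold lower, with log2 folds of -2.63 (approximate SE 0.28) and -5.30 (approximate SE 0.52) and q-values in the authors' deposited tables of 0.00106 and 0.00159. The telogen minus anagen fold, in which driver, control genotype, strain, age and sex change with stage, was -2.66 with an approximate SE of 0.59. The difference was not tested. It depends on the telogen cKO level near 0: with 1 FPKM added to each level the log2 folds were -2.86 in telogen and -2.02 in anagen, a difference of -0.85, and with 5 FPKM added the difference was -0.19, a repeat chosen after seeing the data. In the joint table telogen iKO cells kept 3.51 FPKM against 7.998 FPKM in WT cells, a log2 fold of -1.19 called in the authors' deposited table (q = 0.000444), and lay above the 0.204 FPKM of telogen cKO cells, a pair that was also called. Both control groups held like levels, 8.28 FPKM in anagen Het and 7.998 FPKM in telogen WT cells, with no call between them. Of the 9 T cell markers the highest, Thy1, stood at 6.97 FPKM in anagen iKO and 7.08 FPKM in anagen Het cells, and at 6.33 FPKM in telogen cKO and 3.92 FPKM in telogen WT cells. Of these markers 8 were below 1 FPKM in both anagen groups and 7 in both telogen cKO and WT cells. By Cuffdiff 0 of the 4 tested in anagen and 0 of the 5 tested in telogen were called, with 0 and 1 at an unadjusted p below 0.05 and 0 with a normal p in either; the part of T cells in the Camk4 values was not tested.

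**Figure D2:**
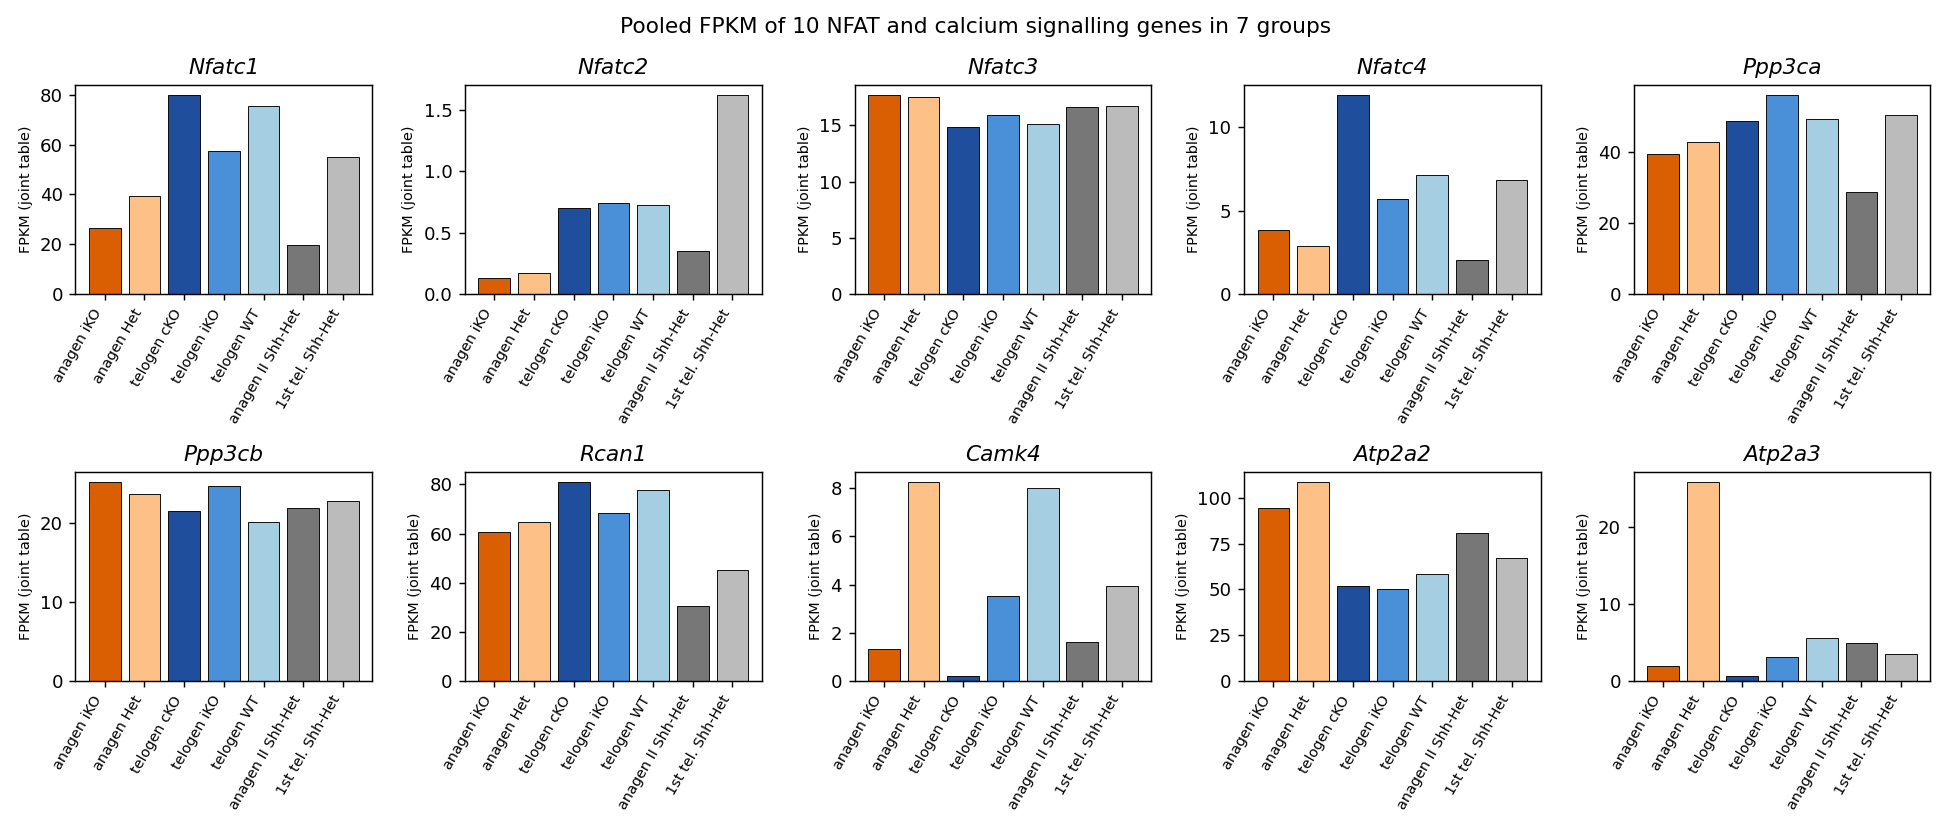
Pooled FPKM from the joint table (vertical axes, linear from 0, a scale of their own per gene) for the 10 genes in anagen iKO, anagen Het, telogen cKO, telogen iKO, telogen WT, anagen II and first telogen cells. Bars carry no error, since 1 pooled value per group was used; Nfatc1 is high in the telogen groups, Atp2a3 peaks in anagen Het cells at 25.9 FPKM, and Camk4 is 8.28 and 7.998 FPKM in the anagen Het and telogen WT controls and 0.204 FPKM in telogen cKO cells.

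The stage comparisons used libraries that do not overlap, so each could be read beside the other. In telogen iKO over anagen iKO cells, which share strain and driver but differ in age by 30 days, 6 of 10 members were called, 5 higher and 1 lower, where the call rate over all tested genes was 33.2%, with 17.6% higher and 15.5% lower. In telogen WT over anagen Het cells, 5 were called, 3 higher and 2 lower, where the rate was 25.4%, with 13.5% higher and 11.9% lower. Strain, genotype, age and sex change with stage in the control pair and cannot be told apart from it. Nfatc1 was called higher in both, with log2 folds of 1.11 in iKO and 0.93 in control cells, as was Nfatc2 with 2.54 and 2.09. Atp2a2 was called lower in both, with log2 folds of -0.92 in iKO and -0.91 in control cells. Nfatc4 was called in controls, with a log2 fold of 1.30. Camk4 was called higher in iKO cells, with a log2 fold of 1.39, and its fold in control cells was -0.05. Atp2a3 had folds of opposite sign: it was called higher in iKO cells with a log2 fold of 0.68 (q = 0.0400 in the authors' deposited table) and lower in control cells with a log2 fold of -2.22. With a normal p the iKO value adjusts to 0.193 and is no call, and 4 members in place of 6 are called in iKO cells, Ppp3ca being the other one lost. Foxc1 itself was called higher in telogen iKO, at 3.17 FPKM against 1.32 FPKM in anagen iKO cells (q = 0.00156 in the authors' deposited table). In the control pair Foxc1 was not called, with a log2 fold of 0.29. The remaining Foxc1 thus differs with stage in the iKO pair, and its part in the Camk4 and Atp2a3 folds was not tested. No difference between the pairs was tested.

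**Figure D3:**
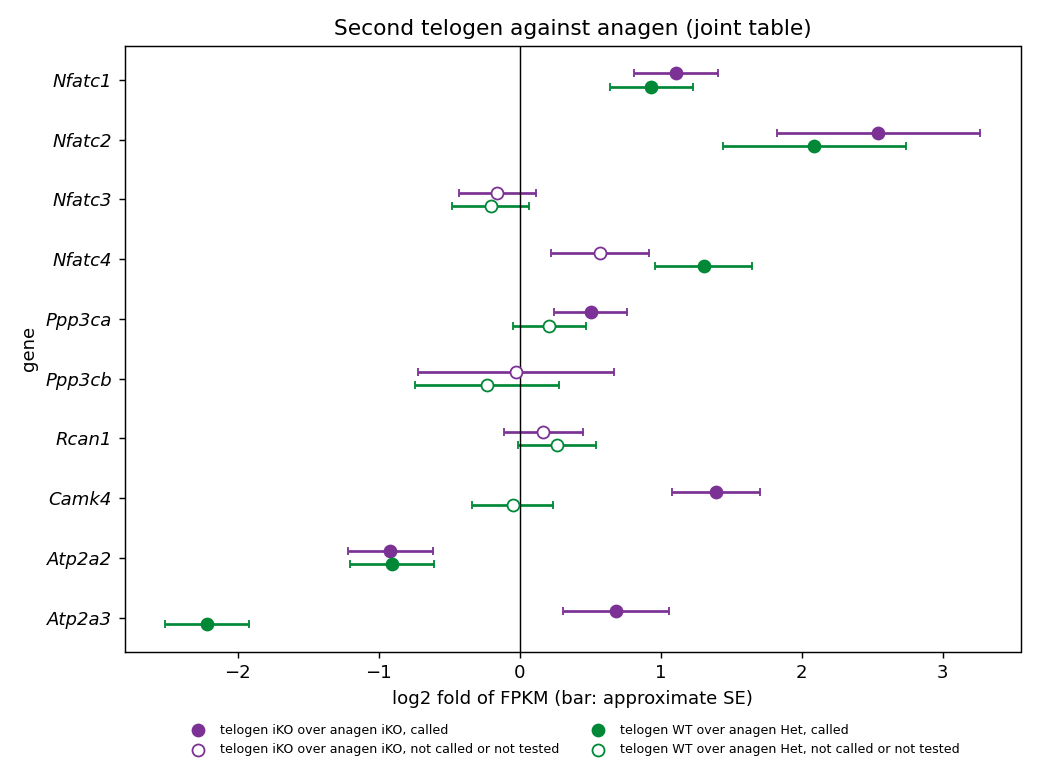
Log2 fold of FPKM for the 10 genes (rows) in telogen iKO over anagen iKO and telogen WT over anagen Het, from the joint table. Bars are approximate SEs and filled points are called at q below 0.05; Nfatc1, Nfatc2 and Atp2a2 lie on the same side in both pairs, and Atp2a3 lies at 0.68 in iKO and -2.22 in control cells.

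The anagen II and first telogen libraries give values with no replicate check and no test. Nfatc1, Nfatc2, Nfatc4 and Camk4, 4 of the 10 members, were at least 2-fold lower in anagen II, and 0 were 2-fold higher, where 30.5% of the 13582 gene models at 1 FPKM or more in either library passed that fold, 10.3% higher and 20.1% lower. Nfatc1 stood at 19.7 FPKM in anagen II and 55.1 FPKM in first telogen, 2.79-fold lower. Camk4 stood at 1.61 FPKM in anagen II and 3.94 FPKM in first telogen, 2.44-fold lower. Nfatc4 was 3.39-fold and Nfatc2 4.68-fold lower. Among 13322 gene symbols at 1 FPKM or more in either library the median log2 fold was -0.13; relative to it the same 4 genes remained past 2-fold, with log2 folds of -1.35, -2.09, -1.63 and -1.16 for Nfatc1, Nfatc2, Nfatc4 and Camk4. The summed fibroblast markers and T cell markers without Thy1, given above, were also lower in anagen II, as were the summed endothelial, myeloid and muscle markers. Thy1 and the summed nerve, melanocyte, hair shaft and Merkel cell markers were higher in anagen II. The part of these markers in the values was not tested.

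Beyond the set, 110 genes on 9 lists of the pathway, which contain the members, were counted. In anagen iKO against Het, 4 were called higher and 13 lower of 78 tested; in telogen cKO against WT, 3 higher and 13 lower of 80. Over all tested genes the shares were 5.18% higher and 5.08% lower in anagen, and 3.75% higher and 2.87% lower in telogen cKO. Without the members the counts were 4 higher and 10 lower of 69, and 3 higher and 11 lower of 70. The list median of log2((FPKM + 1) ratio) was -0.10 in anagen and -0.06 in telogen, against -0.02 and 0.00 over all tested genes. In telogen iKO against WT, 8 were called higher and 14 lower of 80, where the shares over all tested genes were 7.01% and 5.88%. The lists were drawn up with earlier results known, and their counts are given as a description.

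Of the calcineurin subunits and regulators, 0 of 8 tested were called by the authors' Cuffdiff q in anagen and 0 of 8 in telogen, with 0 at an unadjusted p below 0.05 in either and 0 with a normal p. Of the NFAT kinases and scaffolds, such as Gsk3b and Dyrk1a, which phosphorylate NFAT for export from the nucleus, 0 of 10 were called in either, again with 0 at an unadjusted p below 0.05 and 0 with a normal p. At 10.3% of all tested genes called in anagen and 6.62% in telogen, lists of this size with no call lie near the background, and nothing is read from them. The calcineurin regulator Rcan3 was called higher in telogen iKO cells alone among the knockout comparisons, at 28.7 FPKM against 5.57 FPKM in telogen WT cells and against 4.80 FPKM in anagen iKO cells.

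Among the genes of calcium entry, Orai1, the pore of the store-operated channel, was called higher in anagen iKO and telogen cKO cells and not in telogen iKO cells. It stood at 12.8 FPKM in anagen iKO and 7.08 FPKM in anagen Het cells (log2 fold 0.86), and at 19.1 FPKM in telogen cKO and 9.72 FPKM in telogen WT cells (log2 fold 0.97). In the joint table it stood at 10.05 FPKM in telogen iKO and 10.1 FPKM in telogen WT cells. Trpc1, a cation channel, was called lower in telogen cKO, at 0.803 FPKM against 2.18 FPKM in WT cells. Of the plasma membrane channels 4 of 12 tested were called lower in anagen iKO with 0 higher, and 4 lower and 1 higher of 13 in telogen cKO; over all tested genes 5.08% were lower in anagen, and 2.87% lower and 3.75% higher in telogen cKO. Cacna1c, Cacna2d2, Cacnb2, which are the pore and auxiliary subunits of voltage-gated channels, and Trpv4, a cation channel of keratinocytes, were called lower in both. In telogen iKO against WT cells Cacna1c, Cacnb2 and Trpv4 were also called lower, and Cacna2d2 stood at 2.17 FPKM in telogen iKO and 2.70 FPKM in WT cells with no call. Trpv4, the most abundant of them, stood at 70.6 FPKM in anagen iKO and 108 FPKM in anagen Het cells, and at 39.3 FPKM in telogen cKO and 93.1 FPKM in telogen WT cells. Cacnb2 stood at 0.229 FPKM in telogen cKO and 2.39 FPKM in telogen WT cells. Cacna1g, a T-type channel, was the 1 called higher in telogen cKO, at 0.666 FPKM against 0.0391 FPKM in WT cells.

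Among genes of calcium release, Plcg2, the phospholipase that makes the trigger for release from stores, was called lower in both: 7.07 FPKM in anagen iKO and 11.1 FPKM in anagen Het cells, and 9.42 FPKM in telogen cKO and 16.4 FPKM in telogen WT cells. Plcb4 of the same family was called lower in telogen cKO, at 0.714 FPKM against 3.38 FPKM in WT cells. Of the calmodulins and their kinases, 5 of 14 tested were called lower in anagen iKO, and 1 of 14, Camk4, in telogen cKO, with 0 higher in either, beside 5.08% and 2.87% of all tested genes called lower. Calml3, a calmodulin-like protein of epithelia, stood at 306 FPKM in anagen iKO and 655 FPKM in anagen Het cells. Camkk1, a kinase that activates Camk4, stood at 7.86 FPKM in anagen iKO and 16.1 FPKM in anagen Het cells, and Camk2n1, an inhibitor of CaM kinase II, at 0.599 FPKM in iKO and 1.35 FPKM in Het cells.

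Genes reported elsewhere as NFAT-regulated were called in both directions. In anagen iKO 3 of 8 tested were called higher and 1 lower, and in telogen cKO 1 higher and 4 lower of 8. Over all tested genes 5.18% were higher and 5.08% lower in anagen, and 3.75% higher and 2.87% lower in telogen cKO. In telogen iKO against WT, 3 were called higher and 0 lower of 8 tested, beside 7.01% and 5.88% of all tested genes. Vegfa, an angiogenic factor, was called higher in both: 14.9 FPKM in anagen iKO and 7.38 FPKM in anagen Het cells, and 13.99 FPKM in telogen cKO and 3.998 FPKM in telogen WT cells. Egr2 and Egr3, immediate early zinc finger factors, were both called higher in anagen iKO cells and both lower in telogen cKO cells. The log2 folds of Egr2 were 0.78 in anagen and -0.75 in telogen. Egr3 stood at 18.8 FPKM in anagen iKO and 12.5 FPKM in anagen Het cells, and at 7.01 FPKM in telogen cKO and 18.5 FPKM in telogen WT cells. Neither stood lower in telogen iKO than in telogen WT cells. In the joint table Egr2 was at 48.8 and 35.0 FPKM in telogen iKO and WT cells, and Egr3 at 27.4 and 19.2 FPKM. Strain, age, sex and driver differ in that pair and cannot be told apart from the knockout. Prlr, the prolactin receptor, was called lower in anagen iKO, at 17.5 FPKM against 25.2 FPKM in Het cells. Ptgs2, the inducible cyclooxygenase, and Myc were called lower in telogen cKO, at 7.62 FPKM against 20.3 FPKM and at 47.0 FPKM against 95.1 FPKM in WT cells. Cdk4, named above as a target of NFATc1, was called in neither pair. In the joint table it stood at 213 FPKM in anagen iKO and 181 FPKM in anagen Het cells. Telogen cKO, telogen iKO and telogen WT cells held 143, 91.7 and 103 FPKM.

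**Figure D4:**
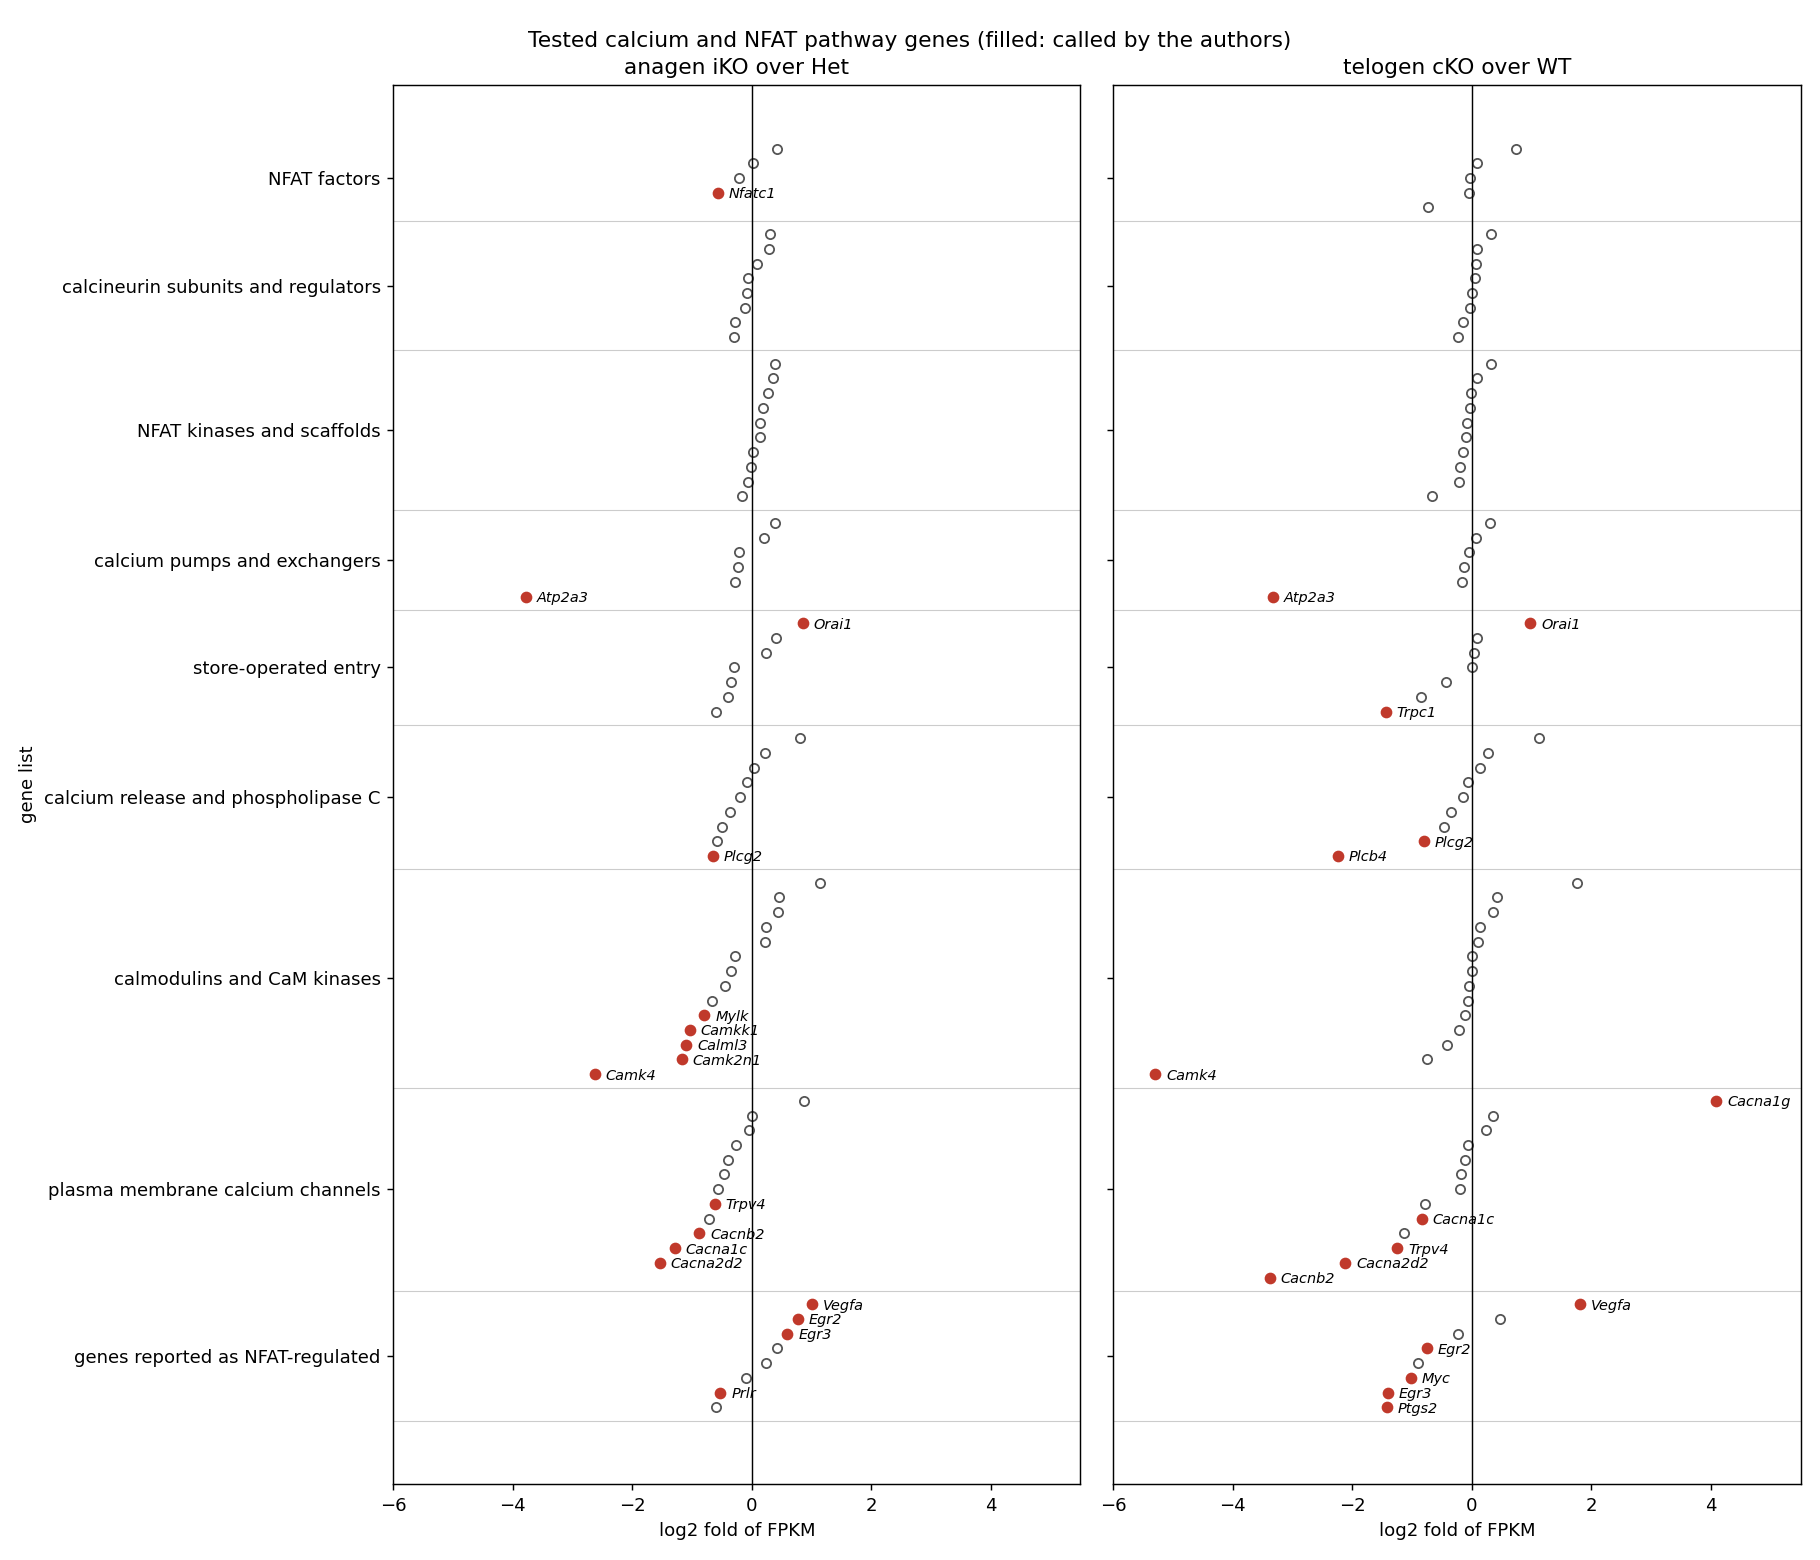
Log2 fold of FPKM (horizontal axis) for every tested gene of the 9 pathway lists, sorted within a list, in anagen iKO over Het (left) and telogen cKO over WT (right). Filled points with a name are called at q below 0.05; the calcineurin and NFAT kinase lists hold no filled point in either panel.

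Over the 7 groups of the joint table, the genes whose levels were most like each of 4 members were taken by Pearson correlation of log2(FPKM + 1) among 10988 genes with at least 5 FPKM in some group. The groups share their processing and in part their strain, so r is a description. For Nfatc1 these were Rab3d (r = 0.993), Col8a2, Def6, Cog7 and Hibadh. For Atp2a3 they were Kdm4a (r = 0.959), Tctex1d2, Hltf, Prkaa2 and Fgfr2. For Camk4 they were Chst13 (r = 0.967), Pcolce2, BC016579, Hoxa7 and Papln. For Rcan1 they were Jtb (r = 0.995), Leprel4, Dmkn, 5930430L01Rik and Zfyve19. Atp2a3 and Camk4 were related to each other with r = 0.82, and Nfatc1 was related to Nfatc4 with r = 0.90 and to Atp2a2 with r = -0.73. Ranked among these genes from the highest r down, Camk4 was 67 for Atp2a3. For Nfatc1, Nfatc4 was 421 and Atp2a2 was 9348, so many other genes were more like Nfatc1 than Nfatc4 was.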

How the data were processed

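RNA was sequenced from 12 libraries in 7 groups of sorted bulge stem cells, from poly(A) RNA. Reads were processed with TopHat, Cufflinks and Cuffdiff against mm9, per the submitters' processing notes, which give no version. The authors deposited 3 tables: one per 2-group comparison and a joint one of 21 comparisons. Each holds FPKM pooled per group, a log2 fold, a test statistic (a score) and p-values and q-values, all deposited by the authors; strand and filters are not given in the sources used here. Depth per library is unknown, so no interval was computed.

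From these, folds were oriented as named, approximate SEs computed, and calls (q below 0.05) counted. Deposited q-values matched Benjamini-Hochberg adjustment of the deposited p-values of each 2-group table; the joint q-values cover its 21 comparisons together. The adjustment of normal p-values was tried on simulated data, which does not test the authors' deposited calls. Members and gene lists were chosen with earlier results of these data known. Named genes were the 10 members and the 5 genes most like each of Nfatc1, Atp2a3, Camk4 and Rcan1. By lowest p, up to 4 called genes per list were named in each 2-group table and up to 2 in each joint comparison. Those of the stage comparisons that are not members stand in the closing section, apart from Rcan3, which stands with the calcineurin genes. Cdk4 was named as well, as a known target of NFATc1. Alternatives were the joint table, q below 0.01 and 0.10, an FPKM minimum of 1 in a group, adjustment within a comparison, pseudocounts of 0.1, 1 and 5, centring, and normal p-values. Python 3.11.15, pandas 2.3.3, numpy 2.4.6, scipy 1.17.1 and matplotlib 3.10.9 were used.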

Additional observations from a re-analysis of the deposited data

How the results depend on the processing

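In the comparisons of 2-library groups no direction of a member's fold reversed. Only centring and the joint table could have reversed one, since the other alternatives keep the sign of a fold. In the single-library pair, centring on the median took Nfatc3 from -0.007 to 0.12 and Ppp3cb from -0.06 to 0.07, all near no change. Of 390 repeats of single members' folds, 7 lost a call, 2 gained one and 381 were counted as unchanged. Those 381 include 50 repeats at each pseudocount (0.1, 1 and 5) and 50 with centring. These have no q-value and could not change a call. At q below 0.01 a call could only be lost, and at q below 0.10 only gained. At q below 0.01 the pathway genes called were 10 in anagen iKO over Het (17 at q below 0.05) and 13 in telogen iKO over WT (22), and Nfatc1 in anagen and Atp2a3 and Ppp3ca in telogen iKO over anagen iKO lost their calls. With normal p-values of the deposited statistic, an alternative chosen after seeing the data, pathway genes called were 9 in anagen, 9 in telogen iKO over WT and 17 (against 30) in telogen WT over anagen Het, and 1 member in place of 2 was called in telogen iKO over WT. Nfatc4 in telogen cKO was called at q below 0.10 and in the joint table, but not in the joint table with a normal p. Adding 1 or 5 FPKM moved the difference of Camk4 folds (telogen minus anagen, -2.66) to -0.85 and -0.19. The deposited Cuffdiff p was smaller than the normal p of the statistic for Nfatc1 in anagen (0.0016 and 0.0277). The same held for Nfatc4 in telogen cKO over WT (0.0035 and 0.0395). For Atp2a3 and Camk4 in the 2-group tables the normal p was the smaller one. Their deposited Cuffdiff p was 5e-05, the smallest those tables hold, so their equal q-values do not rank them. The cause of these differences was not tested. No paired analysis was possible because only pooled values per group are deposited, and for the same reason no library could be left out. Depth limits cannot be given; Nfatc2, below 1 FPKM in every group but first telogen, is least certain.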

Other observations

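Among pathway list genes that are not members, 20 of 68 tested were called higher and 5 lower in telogen iKO over anagen iKO, where 17.6% of all tested genes were higher and 15.5% lower. In telogen WT over anagen Het 20 were called higher and 5 lower of 68, where 13.5% of all tested genes were higher and 11.9% lower. The medians of these genes were 0.21 and 0.17 on the log2((FPKM + 1) ratio) scale, against 0.01 and 0.00 over all tested genes. Ptgs2, the inducible cyclooxygenase, stood at 33.7 FPKM in telogen iKO and 0.855 FPKM in anagen iKO cells, and at 21.1 FPKM in telogen WT and 1.30 FPKM in anagen Het cells. Myc stood at 139 FPKM in telogen iKO and 20.3 FPKM in anagen iKO cells, and at 98.6 FPKM in telogen WT and 21.8 FPKM in anagen Het cells. Stim1, the calcium sensor of the endoplasmic reticulum that opens Orai channels, stood at 81.5 FPKM in telogen iKO and 41.1 FPKM in anagen iKO cells, and at 96.8 FPKM in telogen WT and 54.1 FPKM in anagen Het cells. Itpr2, a calcium release channel, stood at 12.4 FPKM in telogen iKO and 5.22 FPKM in anagen iKO cells, and at 13.98 FPKM in telogen WT and 4.47 FPKM in anagen Het cells. Atp2c2, a Golgi calcium pump, stood at 3.46 FPKM in telogen iKO and 1.34 FPKM in anagen iKO cells, and at 3.87 FPKM in telogen WT and 1.64 FPKM in anagen Het cells. All of these were called higher in telogen in both pairs by the authors' deposited q. Plcb4 was too, with log2 folds of 1.60 in iKO and 1.39 in control cells, as was Cacna1c with 1.80 and 1.19. In the iKO pair Trpc1, Camk2n1 and Cacna2d2 were called higher, with log2 folds of 1.38, 3.10 and 1.07. In the control pair Homer1, Homer2, Mylk, Camk1 and Cacnb1 were called higher, with log2 folds of 0.90, 0.82, 0.95, 0.65 and 1.29. Stim2 was called lower in the control pair, with a log2 fold of -0.66.

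Telogen iKO cells differed from telogen WT cells in other members of the lists. Orai2, a store-operated channel pore, stood at 13.0 FPKM in telogen iKO and 23.3 FPKM in WT cells, and Itpr3 at 76.0 FPKM in telogen iKO and 136 FPKM in WT cells. Calml3 stood at 368 FPKM in telogen iKO and 874 FPKM in WT cells, and Vegfa at 22.4 FPKM in telogen iKO and 4.14 FPKM in WT cells. Ptgs2 was called higher in telogen iKO, at 33.7 FPKM against 21.1 FPKM in WT cells, whereas it was called lower in telogen cKO cells; that difference was not tested. Strain, age and sex differ between telogen iKO and WT cells and cannot be told apart from the knockout.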
